A study of Mus musculus with 6 samples.

Results

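Interferon-stimulated genes are the genes that cells switch on when interferon, the secreted alarm signal against viruses, binds its receptor. The 38 genes described here were given as a list of symbols, each was found once among the 29275 gene rows of the deposited expression tables, and together they cover nucleic acid sensors, transcription factors, antiviral effectors, the ISG15 system and guanylate-binding proteins. They were read in 6 RNA sequencing libraries from primary Sertoli cells of mice, which line the seminiferous tubules and support the developing germ cells. In 3 libraries the genotype label was cKO, a conditional deletion of Arhgef15 in Sertoli cells, and in 3 it was WT; the labels number them as biological replicates 1 to 3 in each genotype. Arhgef15 encodes a guanine nucleotide exchange factor. All 6 cultures were labelled untreated and grew in DMEM/F12 with fetal bovine serum, antibiotics and epidermal growth factor. Not given in the sources used here are the Cre driver, the deleted exons, the strain, the age, and whether cells of several mice were pooled. Values are FPKM, that is fragments scaled to transcript length and library size, so levels can be compared between genes. In every set of 3 values the libraries stand in the order replicate 1, 2 and 3.

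Type I interferons signal through the receptor chains IFNAR1 and IFNAR2, whose kinases JAK1 and TYK2 phosphorylate STAT proteins, STAT2 among them. With IRF9 these form the factor ISGF3, which binds the interferon-stimulated response element, a repeat of the letters GAAA, in the promoters of its target genes. Interferon gamma acts through the gamma-activated site instead, and IRF1 and guanylate-binding proteins are among its typical targets. Mouse Sertoli cells are known to carry Toll-like receptors and RNA sensors and to make type I interferon when exposed to viruses such as mumps virus.

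To show the shared element, RefSeq promoter windows (build GRCm38.p6) of 300 bases, from 250 bases before to 50 bases after the transcript start, are printed for the 3 members with the largest difference between genotypes among those with a match, Rsad2, Gbp3 and Ifit3, and for Irf9, the member with the smallest difference and no match. They run 5′ to 3′ on the gene's own strand, and capitals mark GAAANNGAAA or its reverse complement TTTCNNTTTC. Rsad2 lies on the minus strand at chr12:26456403-26456702, Gbp3 on the plus strand at chr3:142559794-142560093, Ifit3 on the plus strand at chr19:34583279-34583578 and Irf9 on the plus strand at chr14:55603735-55604034.
Rsad2: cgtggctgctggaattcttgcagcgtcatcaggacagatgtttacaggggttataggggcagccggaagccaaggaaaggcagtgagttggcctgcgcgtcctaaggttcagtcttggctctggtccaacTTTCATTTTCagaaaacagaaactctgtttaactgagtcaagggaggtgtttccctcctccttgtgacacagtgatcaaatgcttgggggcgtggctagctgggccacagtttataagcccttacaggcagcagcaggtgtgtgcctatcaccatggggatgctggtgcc
Gbp3: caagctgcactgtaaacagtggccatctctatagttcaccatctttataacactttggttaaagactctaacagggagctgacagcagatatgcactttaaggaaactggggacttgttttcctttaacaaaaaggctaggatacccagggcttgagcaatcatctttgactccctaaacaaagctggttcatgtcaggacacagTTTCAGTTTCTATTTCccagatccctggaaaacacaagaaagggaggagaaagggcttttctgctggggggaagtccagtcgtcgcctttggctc
Ifit3: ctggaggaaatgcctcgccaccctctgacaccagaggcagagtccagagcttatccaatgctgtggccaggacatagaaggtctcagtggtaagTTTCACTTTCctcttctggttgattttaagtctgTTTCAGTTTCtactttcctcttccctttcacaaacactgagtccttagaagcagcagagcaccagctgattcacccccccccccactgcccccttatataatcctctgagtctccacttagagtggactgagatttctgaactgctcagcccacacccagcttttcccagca
Irf9: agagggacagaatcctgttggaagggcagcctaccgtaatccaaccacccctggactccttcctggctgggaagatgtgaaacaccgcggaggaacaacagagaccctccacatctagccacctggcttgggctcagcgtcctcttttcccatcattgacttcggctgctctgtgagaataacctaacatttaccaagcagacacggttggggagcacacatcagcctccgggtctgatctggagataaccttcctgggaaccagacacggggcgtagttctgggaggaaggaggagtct
Windows of 30 bases around the match are added for the Ifit3 copy Ifit3b (chr19:34607793-34607822, plus strand), for Isg15 (chr4:156200871-156200900, minus strand), Gbp2 (chr3:142620594-142620623, plus strand), Gbp7 (chr3:142530273-142530302, plus strand) and Stat2 (chr10:128270266-128270295, plus strand).
Ifit3b: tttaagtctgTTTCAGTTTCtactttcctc
Isg15: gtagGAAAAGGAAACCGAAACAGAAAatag
Gbp2: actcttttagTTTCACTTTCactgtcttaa
Gbp7: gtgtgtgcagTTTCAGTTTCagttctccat
Stat2: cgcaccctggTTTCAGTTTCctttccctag
The window of Ifit3b is the same, letter for letter, as the stretch around the second match of the Ifit3 promoter.

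A promoter entry existed for 30 of the 38 members. Searching both strands, GAAANNGAAA matched the windows of 16 of the 30 (53.3%), against 1079 of 27025 genes in the RefSeq table (3.99%; 3.44% of 32851 windows). The gamma-activated site letters TTCNNNGAA matched 10 of the 30 (33.3%), against 9.55% of genes, and the matches of both motifs overlapped each other at 2 places. Members with the first match were Ifih1, Ddx58, Eif2ak2, Stat2, Ifit1, Ifit3, Ifit3b, Oas1a, Oas3, Rsad2, Bst2, Ifitm3, Isg15, Gbp2, Gbp3 and Gbp7, and the promoter of Irf1, the transcription factor most tied to interferon gamma, held the second. Isg15 carried a run of 3 overlapping matches from -78 to -57 bases relative to its start. A match describes the letters and is neither a shown binding site nor a cause. The median log2 difference between genotypes was 0.33 for the 16 members with a match and 0.46 for the 14 with an entry and none.

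**Figure D1:**
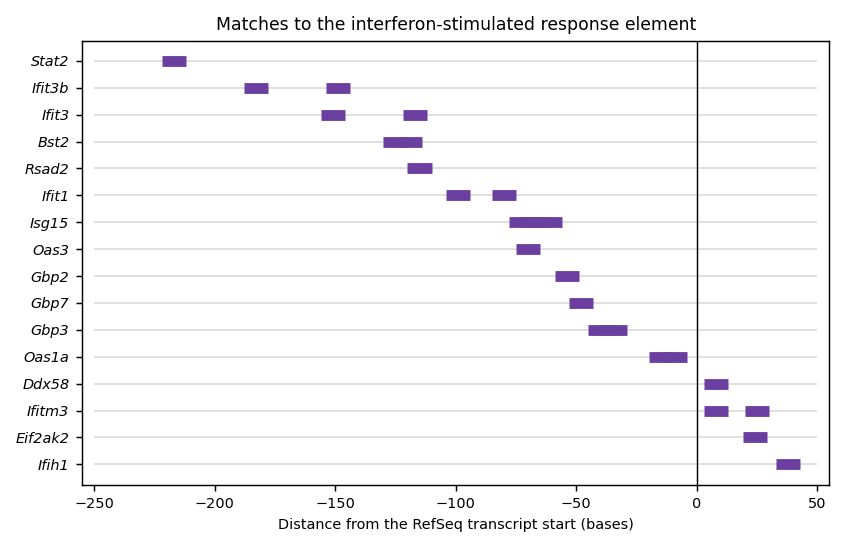
Positions of GAAANNGAAA matches (bars, either strand) in the RefSeq promoter windows of the 16 members that held one; the x axis is the distance from the transcript start in bases. Most matches lie before the start, and those of Ddx58, Ifitm3, Eif2ak2 and Ifih1 lie after it.

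Libraries held between 16790000 and 20320000 fragments, a depth recovered from the steps between FPKM values. Arhgef15 itself had 0.501, 0.322 and 0.338 FPKM in cKO and 0.123, 0.0237 and 0.349 FPKM in WT, on 63, 35 and 44 fragments in cKO and 15, 3 and 46 in WT. The libraries labelled cKO thus held no less of it: the difference was 0.26 on the log2(FPKM + 1) scale (SE 0.13; limma, Benjamini-Hochberg adjusted p = 0.903 over 29275 genes; exact two-sided permutation p = 0.3, where 0.1 is the smallest that 3 against 3 allows). Arhgef15 was too low to pass the filter used below. As the deleted exons are not given, a value over the whole gene cannot show whether they were lost. Marker genes of cell types also differed between libraries. The 14 macrophage markers summed to 146.8 to 255.4 FPKM in cKO and 218.7 to 1013.1 FPKM in WT, with 13 of the 14 lower on average in cKO, and Cx3cr1 at 0 in cKO replicate 1 and WT replicate 1. Lyz2, the lysozyme of macrophages, had 69.2, 37.1 and 69.4 FPKM in cKO and 648, 577 and 66.5 FPKM in WT, so WT replicate 3 sat with the cKO libraries. The 13 Sertoli markers summed to 629.1 to 903.9 FPKM in cKO and 239.4 to 857.9 FPKM in WT. Sox9, a defining Sertoli transcription factor, had 22.3, 24.1 and 35.6 FPKM in cKO and 5.97, 5.10 and 20.2 FPKM in WT, with the groups apart. That held for 3 of the 13, against 11.3% of all genes tested. On the log2 scale 12 of the 13 had the higher mean in cKO, against 59.8% of all genes tested. Trf went the other way, with 22.7, 11.0 and 13.9 FPKM in cKO and 12.6, 14.3 and 34.3 FPKM in WT. Fshr, the receptor for follicle-stimulating hormone, was listed at 0 in WT replicates 1 and 2. Its highest value, 1.42 FPKM, was in WT replicate 3. The 8 endothelial markers were all higher on average in cKO, against 59.8% of all genes tested. Their sums were 96.9, 61.7 and 56.3 FPKM in cKO and 36.1, 30.9 and 60.7 FPKM in WT, the lowest libraries being WT replicates 1 and 2, as for Arhgef15. Most of each sum was Cdh5 alone, with 55.6, 46.0 and 31.6 FPKM in cKO and 30.3, 27.0 and 37.5 FPKM in WT. The 4 markers of peritubular myoid cells summed to 626.2, 780.8 and 1148 FPKM in cKO and 2900.02, 2282 and 462.9 FPKM in WT. Most of that sum was Acta2 alone, with 599, 767 and 1070 FPKM in cKO and 2853, 2240 and 432 FPKM in WT. On average 3 of the 4 were lower in cKO and 1 was higher. The 8 markers of lymphocytes and plasmacytoid dendritic cells were near 0 (sums 0.06 to 0.48 FPKM in cKO and 0.12 to 0.39 FPKM in WT), and Siglech, which defines plasmacytoid dendritic cells, was at 0 in 5 of the 6 libraries. The part of these cell types in the level of Arhgef15 and in the results below was not tested.

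None of the interferon-stimulated genes differed between the genotypes past the test. Of the 38, 37 had at least 1 FPKM in at least 3 libraries and entered the fit, and 0 of them had an adjusted p under 0.05 (limma on log2(FPKM + 1), Benjamini-Hochberg over 12284 genes), where 0.0163% of all genes tested did. The smallest adjusted p of a member was 0.727, and 1 member, Rsad2, had an unadjusted p under 0.05, against 6.81% of genes; no other tool was run. In all 38 members the FPKM of the groups overlapped, while the groups were apart in 11.3% of all genes tested. The mean was higher in cKO for 33 of the 37, against 59.8% of genes, and for 34 of all 38. The median difference was 0.36 over the 37 and 0.38 over the 38, against 0.08 over all genes. Because no label says that the cultures came from separate mice, the p-values reflect the variation of these 6 libraries, which may be technical. In bulk RNA, fewer cells of a type and less RNA per cell cannot be told apart.

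Most of the spread in the list lay among the cKO libraries. Replicates 2 and 3 of cKO held more of these transcripts than replicate 1 in 36 and 37 of the 38 members, against 46.1% and 50.6% of all genes, and by a median of 0.85 and 1.07 on the log2(FPKM + 1) scale. Replicate 3 of cKO was the highest of all 6 libraries in 25 members (65.8%; 18.0% of genes) and lay above all 3 WT values in 32 (84.2%; 25.9% of genes). Replicate 2 of cKO lay above all 3 WT values in 26 members (68.4%; 20.1% of genes). Replicate 1 of cKO was the lowest of the 6 in 18 members (47.4%; 9.18% of genes), lay below all 3 WT values in 19 (50%; 15.0% of genes) and was the highest in 0. In 14 members both held at once, replicates 2 and 3 above and replicate 1 below every WT library, a pattern seen in 1.11% of all genes. These were Ddx58, Zbp1, Stat2, Ifit1, Ifit3, Ifit3b, Oasl2, Mx1, Mx2, Cmpk2, Isg15, Gbp3, Rtp4 and Xaf1. The ratio of the highest to the lowest library was wider within cKO than within WT in 28 of the 38, against 29.5% of the 12185 genes with a value above 0 in every library. Relative to the WT mean, the median member stood at -0.30, 0.49 and 0.71 on the log2 scale in cKO replicates 1, 2 and 3, while the median of all genes stood at 0.07, 0.03 and 0.10.

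**Figure D2:**
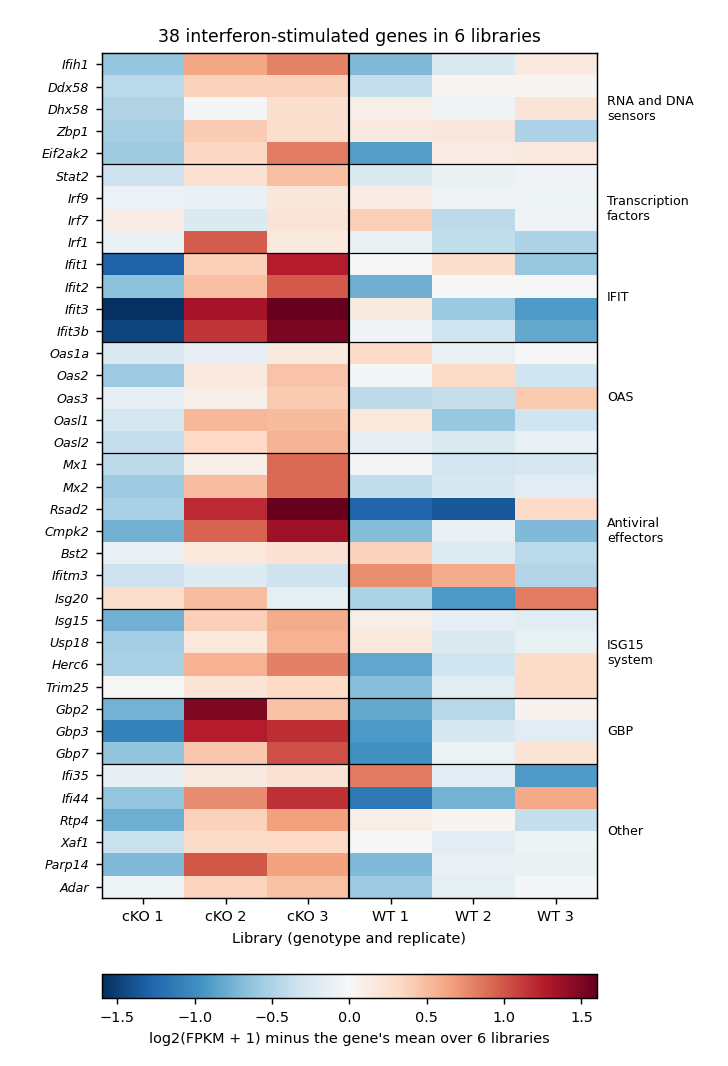
Colour gives log2(FPKM + 1) of each of the 38 members minus its mean over the 6 libraries, with members in rows grouped by role and libraries in columns, cKO left of WT. The column of cKO replicate 1 is mostly blue and those of cKO replicates 2 and 3 mostly red, most strongly in Ifit3, Ifit3b, Rsad2, Gbp2 and Gbp3.

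The IFIT proteins bind viral RNA and block its translation. Mean log2(FPKM + 1) over the 4 genes was 2.41, 4.49 and 5.00 in cKO and 3.49, 3.499 and 3.08 in WT, the widest span of any of the 8 role groups of members. Ifit3, whose human counterpart stabilises IFIT1 on RNA, had 7.63, 63.6 and 79.0 FPKM in cKO and 27.7, 16.1 and 12.9 FPKM in WT. The means were 50.1 ± 37.6 FPKM in cKO and 18.9 ± 7.81 FPKM in WT (SD, n = 3 each), and the range within the cKO libraries was 10.4-fold, against 2.16-fold in WT. Replicates 2 and 3 of cKO lay above every WT library, and cKO replicate 1 lay below every WT library. Its difference was 0.90 on the log2(FPKM + 1) scale (SE 0.80; limma adjusted p = 0.876). The near-copy Ifit3b had 1.52, 14.4 and 18.7 FPKM in cKO and 5.73, 4.56 and 2.95 FPKM in WT, with the same order of the cKO libraries. Of the 75-base stretches of their transcripts, 41.1% of those in Ifit3 and 35.7% of those in Ifit3b occur in the other gene, so the counting could have split fragments between them. Summed over both genes there were 317, 2348 and 3524 fragments in cKO and 1122, 727 and 576 in WT, which keeps the order. Ifit1, which recognises RNA that lacks cap methylation, had 9.13, 31.2 and 58.5 FPKM in cKO and 23.7, 29.0 and 15.4 FPKM in WT. Both extremes were again cKO libraries, and the difference of 0.23 (SE 0.60; limma adjusted p = 0.958) turned to -0.34 without cKO replicate 3. Ifit2 was lower in level, with 2.64, 6.99 and 10.3 FPKM in cKO and 2.34, 4.73 and 4.70 FPKM in WT, and here WT replicate 1 was the lowest library.

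Among the antiviral effectors, Rsad2 had the largest difference of the 37 tested members. It encodes viperin, a radical SAM enzyme that makes a chain-terminating nucleotide. Rsad2 had 4.75, 17.9 and 24.5 FPKM in cKO and 2.41, 2.21 and 9.16 FPKM in WT. The means were 15.7 ± 10.0 FPKM in cKO and 4.59 ± 3.96 FPKM in WT (SD, n = 3 each). Replicates 2 and 3 of cKO were above every WT library, but WT replicate 3 was above cKO replicate 1. The difference was 1.54 (SE 0.65; limma adjusted p = 0.727). Cmpk2, a mitochondrial nucleotide kinase whose gene lies beside Rsad2 on chromosome 12, had 2.60, 10.8 and 14.8 FPKM in cKO and 2.79, 4.66 and 2.75 FPKM in WT. Its difference was 1.02 (SE 0.53; limma adjusted p = 0.763), and it followed Rsad2 within cKO but not in WT replicate 3, where it was no higher than in WT replicate 1. Mx1, a dynamin-like GTPase against influenza viruses, was the member left out by the filter. It had 0.218, 0.740 and 2.05 FPKM in cKO and 0.606, 0.312 and 0.351 FPKM in WT, on 16, 47 and 156 fragments in cKO and 43, 23 and 27 in WT. Only 1 library, cKO replicate 3, exceeded 1 FPKM, and in the fit without the filter the difference was 0.39 (SE 0.36; limma adjusted p = 0.903). Mx2, its cytoplasmic relative in mice, had 1.21, 3.69 and 5.23 FPKM in cKO and 1.53, 1.77 and 1.96 FPKM in WT, with cKO on both sides of a narrow WT range.

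Of the remaining effectors, the abundant membrane proteins had both their highest and their lowest library in WT. Ifitm3, which blocks the fusion of viruses in endosomes, was the most abundant member, with 925, 1006 and 926 FPKM in cKO and 1941, 1749 and 839 FPKM in WT. The cKO values lay close together, and the spread was in WT, where replicates 1 and 2 stood far above replicate 3. The difference was -0.57 (SE 0.34; limma adjusted p = 0.795). Without WT replicate 3 it was -0.95 with a limma adjusted p of 0.0498, the 1 member called in any setting, in a comparison that then called 478 genes (3.89%). Lyz2 and the macrophage sums above were also high in WT replicates 1 and 2 and low in replicate 3; their part in Ifitm3 was not tested. Bst2, tetherin, which holds budding virions at the cell surface, had 346, 424 and 443 FPKM in cKO and 485, 324 and 279 FPKM in WT, so the highest and lowest libraries were both WT. Within cKO, replicate 1 of Bst2 was the lowest, as in most members. Isg20, an exonuclease that degrades viral RNA, had 13.6, 15.9 and 9.77 FPKM in cKO and 7.51, 5.35 and 20.2 FPKM in WT, again with both extremes in WT, and was the 1 member in which cKO replicate 1 exceeded cKO replicate 3.

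**Figure D3:**
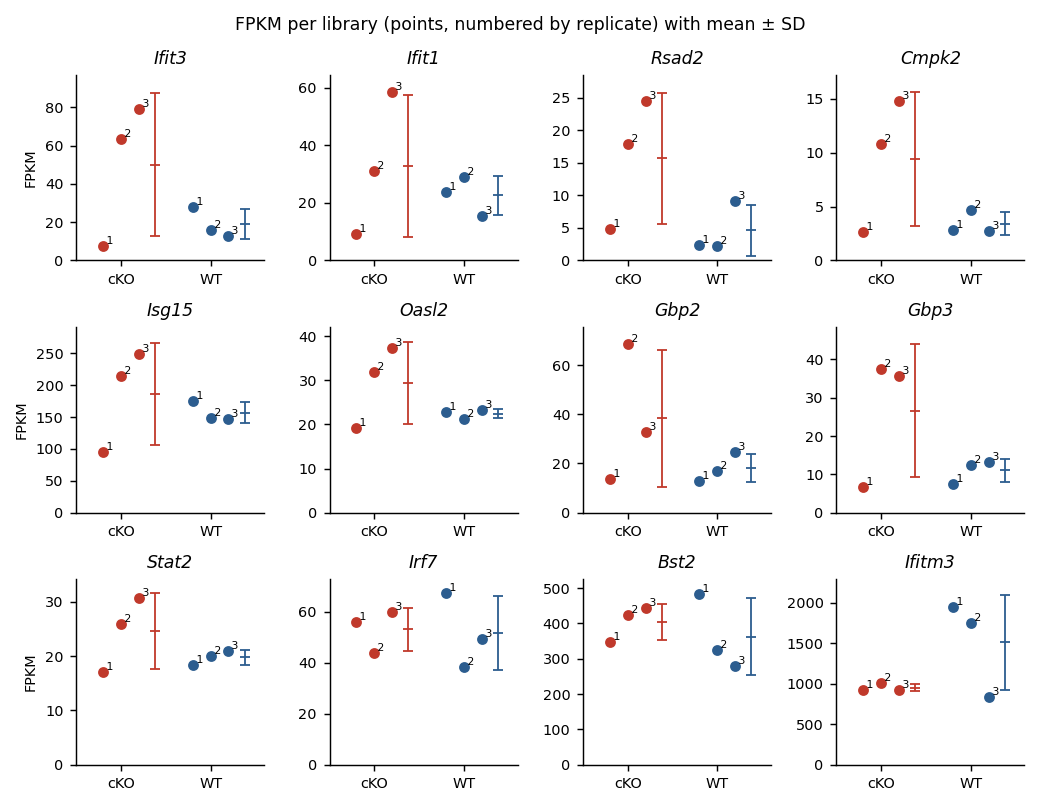
FPKM (y axis, from 0, a scale per panel) of 12 members in each library, with points numbered by replicate and bars for mean ± SD, cKO left of WT. In Ifit3, Ifit1, Cmpk2, Isg15, Oasl2, Gbp3 and Stat2 the cKO points straddle the WT points, in Irf7 and Bst2 the WT range is the wider, and in Ifitm3 WT replicates 1 and 2 stand above the rest.

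The ISG15 system attaches a ubiquitin-like protein to targets during an interferon response. Isg15, the modifier itself, had 95.8, 214 and 249 FPKM in cKO and 175, 148 and 146 FPKM in WT. The means were 186 ± 80.4 FPKM in cKO and 157 ± 16.1 FPKM in WT (SD, n = 3 each), and the WT libraries fell inside the span of the cKO libraries. The difference was 0.14 (SE 0.36; limma adjusted p = 0.956) and turned to -0.12 without cKO replicate 3. Usp18, which removes ISG15 and also damps signalling at IFNAR2, had 21.2, 35.1 and 46.3 FPKM in cKO and 35.3, 26.5 and 28.6 FPKM in WT, with the same span. Herc6, the ligase for ISG15 in mice, had 1.23, 3.72 and 4.61 FPKM in cKO and 0.804, 1.56 and 2.91 FPKM in WT, where WT replicate 1 was lowest. Trim25, a ubiquitin ligase that acts on RIG-I, had 29.2, 33.9 and 36.5 FPKM in cKO and 17.8, 25.7 and 36.2 FPKM in WT, so that WT replicate 3 matched the upper cKO libraries. Of the 75-base stretches of the Herc6 transcript, 22.4% also occur in the predicted gene Gm45193, so its values are less certain.

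The guanylate-binding proteins are GTPases that attack the vacuoles and membranes of intracellular pathogens and respond to both types of interferon. Gbp3 had 6.59, 37.5 and 35.7 FPKM in cKO and 7.55, 12.5 and 13.1 FPKM in WT, with a difference of 0.91 (SE 0.61; limma adjusted p = 0.822). Gbp2 had 13.6, 68.5 and 33.0 FPKM in cKO and 13.0, 17.1 and 24.5 FPKM in WT, with a difference of 0.81 (SE 0.54; limma adjusted p = 0.819). In both genes cKO replicates 2 and 3 lay above all WT libraries, and in Gbp2 replicate 2 was far above replicate 3. Gbp7 had 2.21, 5.71 and 9.14 FPKM in cKO and 1.53, 3.66 and 4.75 FPKM in WT, with cKO replicate 1 between WT libraries. Mean log2(FPKM + 1) over the 3 genes was 2.82, 4.71 and 4.54 in cKO and 2.75, 3.38 and 3.67 in WT.

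The oligoadenylate synthetases, which sense double-stranded RNA and switch on RNase L, varied less than the IFIT genes. Oas1a had 25.5, 27.2 and 33.5 FPKM in cKO and 37.4, 27.6 and 30.2 FPKM in WT, with WT replicate 1 on top and a difference of -0.14 (SE 0.21; limma adjusted p = 0.92). It shares 47.6% of its 75-base stretches with Oas1g, and their summed fragments, 1117, 1108 and 1694 in cKO and 1571, 1198 and 1436 in WT, also overlapped. Oas2 had 4.94, 8.94 and 11.2 FPKM in cKO and 7.79, 10.0 and 6.16 FPKM in WT, and its difference of 0.02 became -0.046 under median-ratio scaling and -0.068 under quantile normalization. Oas3 had 7.07, 8.33 and 10.8 FPKM in cKO and 5.64, 5.86 and 10.8 FPKM in WT, where the top libraries of both groups were level. The related Oasl1, which represses translation of IRF7 in mice, had 9.85, 18.0 and 17.7 FPKM in cKO and 13.8, 7.65 and 9.57 FPKM in WT. Oasl2 had 19.2, 31.9 and 37.4 FPKM in cKO and 22.9, 21.3 and 23.2 FPKM in WT. In Oasl2 a WT range of less than 2 FPKM sat between cKO replicate 1 and the other cKO libraries, and in Oasl1 cKO replicate 1 was inside the WT range.

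In 4 of the 5 sensors of viral nucleic acid, cKO replicates 2 and 3 exceeded every WT library. Ddx58, which encodes RIG-I, had 16.2, 28.9 and 28.8 FPKM in cKO and 16.8, 22.8 and 22.7 FPKM in WT, a difference of 0.21 (SE 0.28; limma adjusted p = 0.907). Ifih1, which encodes MDA5, the sensor of long double-stranded RNA, had 4.90, 13.0 and 14.8 FPKM in cKO and 4.56, 6.71 and 9.12 FPKM in WT, a difference of 0.53 (SE 0.42; limma adjusted p = 0.853). Eif2ak2, the kinase PKR that stops translation on binding double-stranded RNA, had 8.04, 15.8 and 22.7 FPKM in cKO and 6.24, 13.6 and 13.9 FPKM in WT, a difference of 0.39 (SE 0.43; limma adjusted p = 0.896). Of these 3 genes, cKO replicate 1 was the lowest library in Ddx58, and WT replicate 1 was the lowest in Ifih1 and Eif2ak2. Zbp1, a sensor of Z-form nucleic acid, had 9.60, 19.3 and 17.4 FPKM in cKO and 16.1, 16.4 and 9.89 FPKM in WT. Dhx58, which encodes the RIG-I relative LGP2, had 6.97, 9.98 and 12.3 FPKM in cKO and 10.8, 9.72 and 11.8 FPKM in WT. In both the lowest library was cKO replicate 1, and the difference was smaller than its SE, at 0.10 for Zbp1 (SE 0.32) and -0.16 for Dhx58 (SE 0.25). Dhx58 was the sensor in which cKO replicate 2 stayed within the WT range.

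The 4 transcription factors of the pathway shared no order of the libraries. Stat2 had 17.0, 26.0 and 30.7 FPKM in cKO and 18.3, 20.0 and 20.9 FPKM in WT, with the narrow WT range inside the cKO span. Irf9, the DNA-binding part of ISGF3, had 14.5, 14.4 and 17.8 FPKM in cKO and 17.2, 15.0 and 14.8 FPKM in WT and so was nearly flat. Its difference of -0.01 (SE 0.19; limma adjusted p = 0.993) was the smallest among the 37. Irf7, the master factor for interferon alpha genes, had 55.9, 43.7 and 59.7 FPKM in cKO and 67.2, 38.2 and 49.3 FPKM in WT. Here cKO replicate 2 was lower than cKO replicate 1, WT replicate 1 was on top, and the difference of 0.07 lay at -0.0021 with median-ratio scaling and at -0.14 with library weights. Irf1 had 7.68, 17.4 and 9.49 FPKM in cKO and 7.69, 6.18 and 5.69 FPKM in WT, with a single high library, cKO replicate 2, and a difference of 0.67 (SE 0.31; limma adjusted p = 0.755). The cKO libraries of Irf1 missed separation from WT by the near-equal values of cKO replicate 1 and WT replicate 1.

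The remaining 6 members showed both kinds of spread. Rtp4, a receptor transporter protein, had 13.2, 30.4 and 37.5 FPKM in cKO and 25.4, 23.9 and 17.8 FPKM in WT. Xaf1, a partner of the apoptosis inhibitor XIAP, had 7.84, 12.9 and 13.1 FPKM in cKO and 10.4, 9.09 and 9.74 FPKM in WT. In both, the WT libraries lay between cKO replicate 1 and the other cKO libraries. Ifi44 had 3.68, 11.1 and 15.2 FPKM in cKO and 2.25, 3.26 and 9.95 FPKM in WT, with a difference of 0.87 (SE 0.58; limma adjusted p = 0.822). Parp14, an ADP-ribosyltransferase, had 4.70, 17.5 and 13.6 FPKM in cKO and 4.69, 7.56 and 7.604 FPKM in WT. Adar, which edits adenosine to inosine in double-stranded RNA, had 11.5, 15.8 and 17.1 FPKM in cKO and 7.73, 10.9 and 11.8 FPKM in WT, with a difference of 0.51 (SE 0.25; limma adjusted p = 0.755). In these 3 genes cKO replicate 1 stood within the WT range and the other cKO libraries above it. Ifi35 had 17.6, 21.5 and 22.9 FPKM in cKO and 35.1, 17.0 and 9.89 FPKM in WT, so its WT libraries spanned both sides of cKO. Exons of Ifi35 and Adar each overlap a gene on the opposite strand over 16.8% of their length, and whether the counting used strand is not stated.

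**Figure D4:**
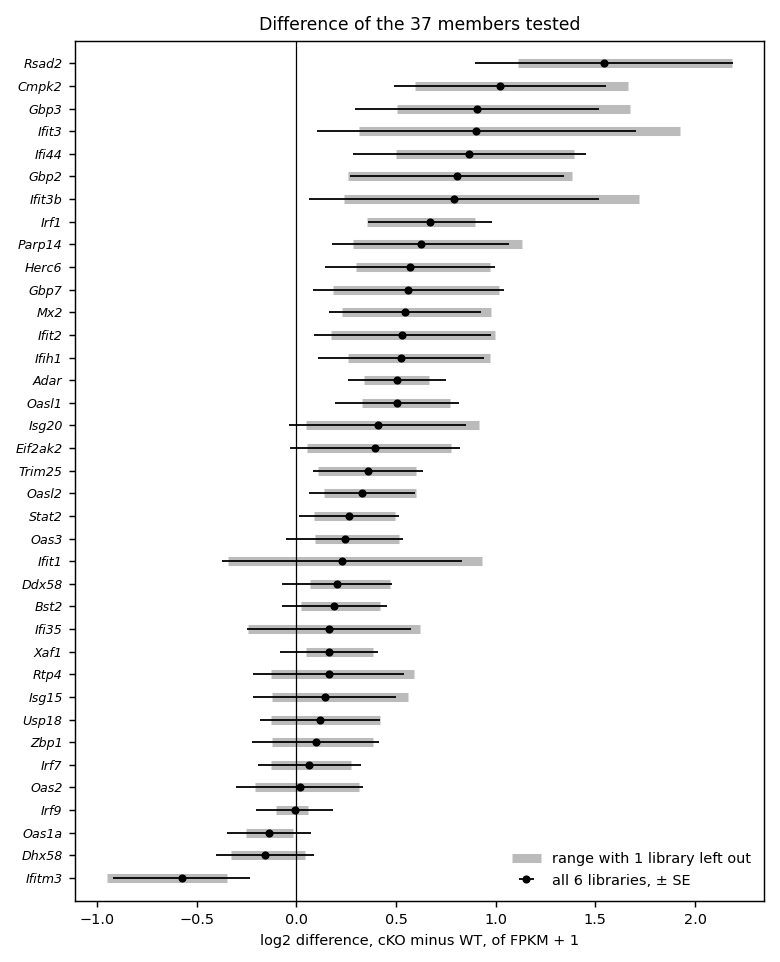
Log2 difference of FPKM + 1, cKO minus WT, for the 37 tested members, with points and lines for the fit of all 6 libraries ± SE and grey bars for the range when each library is left out in turn. Rsad2 is at 1.54 and Ifitm3 at -0.57, and 10 members change sign when 1 library is left out.

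Leaving out single libraries moved these counts. Without cKO replicate 1 the groups were apart in 25 of the 37 members, all higher in cKO (13.0% of all genes), and 18 members had an unadjusted p under 0.05 (6.67% of genes). Still 0 were called (0.0% of genes); the smallest adjusted p was 0.585 (limma), for Ifit3, Ifit3b, Gbp3 and Cmpk2, with differences of 1.92, 1.72, 1.68 and 1.66. Without cKO replicate 3 the members with the higher mean in cKO numbered 26, the median difference was 0.14, and 0 had an unadjusted p under 0.05 (4.29% of genes). Without WT replicate 3, 6 members had an unadjusted p under 0.05, against 22.3% of genes, and the adjusted p of Rsad2 was 0.102 (limma, difference 2.08).

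Upstream of the members, interferon transcripts themselves were barely present. Of 10 interferon genes looked up, 5 had a row in the files, and none of the 5 passed the filter. Ifnb1, the first type I interferon made in most cells, was added outside the naming rule after its values were seen, and had 1, 0 and 4 fragments in cKO and 2, 3 and 1 in WT. Ifna4 had 0, 0 and 2 fragments in cKO and 11, 0 and 0 in WT. Ifnk had 0, 0 and 5 fragments in cKO and 0, 0 and 2 in WT, and Ifna2 and Ifna5 had 2 fragments each, in cKO replicate 3 alone. All 5 were at 0 in cKO replicate 2, which had high levels of most members. A count of 0 allows up to 3 fragments. The largest count, 11 fragments of Ifna4 in WT replicate 1, was the 1 value well above that limit, and no other WT library held any Ifna4.

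The receptor and kinase genes, averaged as a list, followed the cKO pattern only in part. Their mean log2(FPKM + 1) was 3.64, 4.02 and 3.80 in cKO and 3.42, 3.69 and 3.95 in WT. Replicate 1 of cKO was the lowest within cKO, as in the members, but WT replicate 1 was the lowest of all 6 libraries. Of 10 receptor and signalling genes, 9 were tested and 0 passed the test. The mean was higher in cKO for 6 and lower for 3, where it was higher for 59.8% of all genes. Ifngr1, the ligand-binding chain for interferon gamma, had 16.7, 21.0 and 16.2 FPKM in cKO and 22.5, 26.0 and 22.5 FPKM in WT, with every cKO library below every WT library. Its difference was -0.39 (SE 0.20; limma adjusted p = 0.755). It was the 1 gene of the 10 whose groups were apart, against 11.3% of all genes tested. Ifnar2 had 20.4, 27.9 and 18.3 FPKM in cKO and 10.7, 14.2 and 24.1 FPKM in WT, and Il10rb, a chain of the interferon lambda receptor, had 11.5, 12.9 and 12.3 FPKM in cKO and 8.56, 7.53 and 13.0 FPKM in WT. Ifnlr1, the other lambda chain, reached at most 0.518 FPKM. Their groups overlapped, and both cKO replicate 1 and WT replicate 3 were among the upper libraries of Ifnlr1.

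Among 11 genes that lead to interferon production, 10 were tested, with 5 higher and 5 lower on average in cKO and 0 past the test. Sting1 (Tmem173 in the annotation), the adaptor of DNA sensing, had 13.5, 13.7 and 13.7 FPKM in cKO and 32.0, 29.9 and 10.7 FPKM in WT, with WT replicates 1 and 2 high as in Ifitm3. Cgas, the DNA sensor upstream of it, had 2.09, 2.66 and 4.10 FPKM in cKO and 1.72, 2.83 and 1.87 FPKM in WT. Tlr7, an endosomal receptor for single-stranded RNA, had 1.16, 2.01 and 1.87 FPKM in cKO and 2.14, 4.11 and 2.07 FPKM in WT, every cKO library being below WT, with a difference of -0.47 (SE 0.28; limma adjusted p = 0.796). It was the 1 gene of the 11 whose groups were apart, against 11.3% of all genes tested. Tlr9, which senses DNA, reached at most 0.178 FPKM in cKO and 0.311 FPKM in WT.

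Of the negative regulators of the pathway, Socs1 and Socs3 were higher in each cKO library than in any WT library. All 5 on the list were tested, 4 had the higher mean in cKO, against 59.8% of all genes, and 0 passed the test. Socs1, which inhibits JAK kinases, had 6.78, 9.57 and 5.82 FPKM in cKO and 4.62, 3.60 and 2.08 FPKM in WT, with a difference of 0.94 (SE 0.30; limma adjusted p = 0.611). Socs3, the inhibitor best known for interleukin 6 signalling, had 51.5, 46.3 and 52.2 FPKM in cKO and 28.7, 41.0 and 33.3 FPKM in WT, with a difference of 0.54 (SE 0.20; limma adjusted p = 0.663). The lowest cKO library was replicate 3 in Socs1 and replicate 2 in Socs3. Groups without overlap, in either direction, were found in 11.3% of all genes tested. Every cKO library lay above every WT library in 772 of the 12284 genes. Ptpn2, a phosphatase of JAKs and STATs, had 7.50, 12.2 and 13.7 FPKM in cKO and 6.40, 6.63 and 12.5 FPKM in WT, and Pias1 had 5.28, 4.44 and 5.95 FPKM in cKO and 4.84, 5.91 and 7.003 FPKM in WT, both overlapping.

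Other interferon-responsive genes were set beside the members. Of 28 further interferon-stimulated genes, all tested, 19 had the higher and 9 the lower mean in cKO, where 59.8% of all genes had the higher mean. Their median difference was 0.15, against 0.08 over all genes, and 0 were called. Their libraries stood in a like order: cKO replicate 3 was highest in 17 (60.7%; 18.0% of all genes) and cKO replicate 1 lowest in 11 (39.3%; 9.18% of all genes). Parp12, an antiviral ADP-ribosyltransferase, had 25.2, 38.2 and 39.2 FPKM in cKO and 20.4, 24.7 and 26.6 FPKM in WT, and Helz2 had 14.0, 20.1 and 19.0 FPKM in cKO and 6.87, 8.72 and 14.7 FPKM in WT, both with cKO replicates 2 and 3 on top. Ifi27l2a had 22.6, 15.7 and 37.6 FPKM in cKO and 86.4, 72.8 and 22.2 FPKM in WT, and Lgals3bp had 156, 144 and 132 FPKM in cKO and 238, 216 and 154 FPKM in WT, both with WT replicates 1 and 2 on top. Of 17 genes typical of interferon gamma, 12 were tested, 10 with the higher mean in cKO, against 59.8% of all genes, and 0 were called. Replicates 2 and 3 of cKO were each highest in 7 of the 17 (41.2%), against 9.86% of all genes for replicate 2 and 18.0% for replicate 3. Gbp5 had 0.552, 5.36 and 2.08 FPKM in cKO and 0.177, 0.440 and 1.33 FPKM in WT, and Nlrc5, the activator of class I antigen presentation genes, had 0.990, 2.92 and 2.73 FPKM in cKO and 0.502, 0.839 and 1.92 FPKM in WT, with replicate 2 of cKO on top in both. Tgtp1, an immunity-related GTPase below the filter, had 0.547, 1.10 and 1.93 FPKM in cKO and 0.0832, 0.240 and 0.430 FPKM in WT, the groups being apart. It was the 1 gene of the 17 for which this held, against 11.3% of all genes tested. Ido1, a tryptophan-degrading enzyme, reached at most 0.136 FPKM in cKO and 0.566 FPKM in WT.

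Targets of NF-kB, the other arm of innate signalling, ordered the libraries differently. All 18 genes of that list had the higher mean in cKO, against 59.8% of all genes, and 0 were called. Replicate 2 of cKO was the highest library in 18 of 18, against 9.86% of all genes. Cxcl10, a chemokine that both interferon and NF-kB induce, had 2.93, 62.4 and 25.7 FPKM in cKO and 3.41, 2.82 and 4.61 FPKM in WT, so cKO replicates 2 and 3 were high and replicate 1 was near WT, as in the members. Ccl5 had 17.4, 93.0 and 9.59 FPKM in cKO and 4.44, 1.55 and 9.89 FPKM in WT, and Cxcl1, a neutrophil attractant, had 153, 1011 and 52.7 FPKM in cKO and 6.002, 11.8 and 163 FPKM in WT. Cxcl5 had 383, 1709.8 and 336 FPKM in cKO and 38.4, 139 and 379 FPKM in WT. In these 3 chemokines cKO replicate 3, the library with the highest interferon-stimulated genes, was no higher than WT replicate 3.

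Averaged over the list, mean log2(FPKM + 1) of the 38 members was 3.53, 4.49 and 4.67 in cKO and 3.78, 3.82 and 3.91 in WT. On the same scale the macrophage means were 3.13, 2.40 and 2.63 in cKO and 4.01, 3.91 and 3.13 in WT. The Sertoli means were 4.13, 3.95 and 4.33 in cKO and 2.79, 2.74 and 4.24 in WT. Germ cell markers were high in cKO replicate 1 and WT replicate 3, with means of 3.10, 1.24 and 1.01 in cKO and 1.27, 1.41 and 3.19 in WT. The part of these cell types in the members' levels was not tested. The NF-kB means were 4.56, 6.90 and 3.99 in cKO and 2.75, 3.00 and 4.69 in WT.

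**Figure D5:**
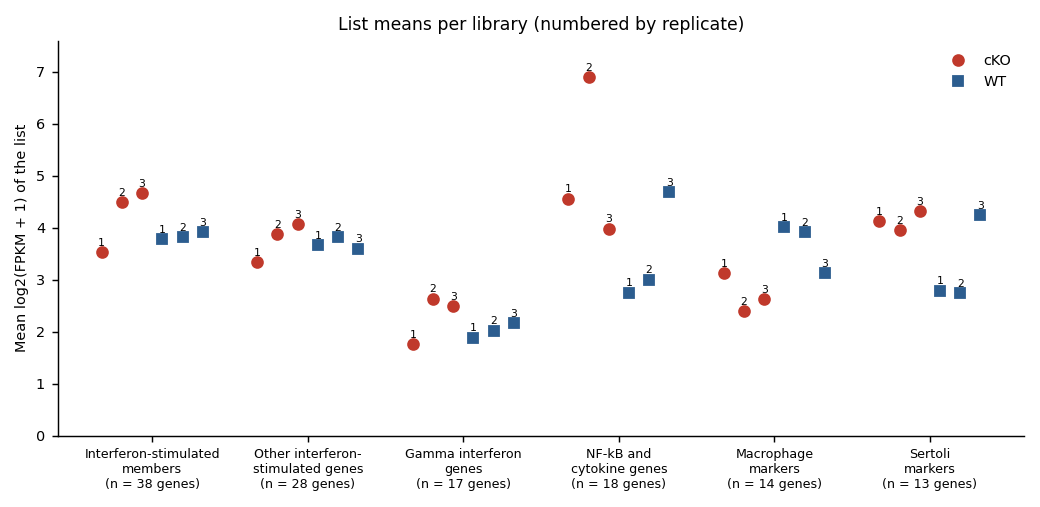
Mean log2(FPKM + 1) of 6 gene lists (x axis) in each library, as circles for cKO and squares for WT, numbered by replicate. The members read 3.53, 4.49 and 4.67 in cKO around 3.78 to 3.91 in WT, and the NF-kB, macrophage and Sertoli lists order the libraries in other ways.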

How the data were processed

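Total RNA of 6 primary Sertoli cell cultures, 3 labelled cKO and 3 labelled WT, was extracted with TRIzol, per the labels' protocols. Groups came from the genotype label and replicate numbers from the titles; no batch is labelled. Per the submitters' processing notes, the tools were FastQC and HISAT2 2.1.0 and the build was mm8. Which program counted the reads, on which annotation and with which strand setting, is not given in the sources used here. No source names the unit. The deposited values were taken as FPKM because, multiplied by exonic length, they were whole multiples of a library's unit step. This held to within a relative 0.02 for 99.1% to 99.5% of the low values in single-exon genes. The step was itself chosen for the best such match, so this share is no independent check. Exonic lengths and symbols came from a GENCODE annotation of GRCm38, and 28932 of 29275 identifiers matched a symbol. Promoter coordinates are those of RefSeq, not of the files.

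Values were transformed to log2(FPKM + 1), which understates the change of low genes. Genes reaching 1 FPKM in 3 or more of the 6 libraries were tested with limma 3.58.1 (R 4.3.3; eBayes with trend, genotype as the only term, two-sided), with Benjamini-Hochberg adjustment over 12284 genes and a threshold of 0.05. Arhgef15 and Mx1 were fitted over all 29275 genes. The fit code was also run on simulated data, and no result here rests on that run. How often 3 against 3 libraries miss a real change is not given here. Python 3.11.15 was used for counts, motif searches and figures. The members and all gene lists were chosen with earlier results of these data known, so no test of a list was made. All 38 members are named. From each pathway list up to 4 genes with the smallest p in the fit without the filter are named, and from the marker lists the defining genes; Ifnb1 was added, and the values of 1 gene are not reported here. Alternatives were no filter or a filter of 5 FPKM, a pseudocount of 0.1 or 5, scaling by median ratios or quantiles, library weights, a threshold of 0.1, the replicate block, and leaving out each library.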

Additional observations from a re-analysis of the deposited data

How the results depend on the processing

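Among the members, 0 were called in every alternative other than those leaving out a library, where the count was 0 to 1. The 2 genes called over all genes became 0 without the filter and 0 with the replicate block, and 0 to 478 when 1 library was left out; the largest count came without WT replicate 3, which also made Ifitm3 (-0.95) the called member. Members whose groups were apart numbered 1 with quantile normalization, for which the share over all genes is not given here. They numbered 0 to 25 when 1 library was left out, with 25 without cKO replicate 1, against 13.0% of all genes higher in cKO. The members' median difference ranged from 0.14 to 0.60 and stayed above 0. Irf7 turned to -0.0021 with median-ratio scaling and -0.14 with library weights, and Oas2 to -0.0459 under median-ratio scaling and -0.0675 under quantile normalization. Leaving out 1 library in turn, the difference ranged from -0.10 to 0.0582 for Irf9, -0.13 to 0.27 for Irf7, -0.12 to 0.39 for Zbp1, -0.34 to 0.93 for Ifit1, -0.21 to 0.31 for Oas2, -0.24 to 0.62 for Ifi35, -0.33 to 0.0427 for Dhx58, -0.12 to 0.56 for Isg15, -0.13 to 0.42 for Usp18 and -0.13 to 0.59 for Rtp4. The cause was not tested. The other 202 such values, and 287 under other settings, kept their direction and side of the threshold. Arhgef15 stayed higher in cKO (0.06 to 1.05; limma adjusted p from 0.0684 to 0.974). Libraries with the same number in both genotypes showed no strong common deviation (correlations over genes of 0.138, 0.032 and -0.206). This check did not show a pairing by number, but it cannot exclude one. With the replicate block, as without it, 0 members were called. Members at low levels, such as Mx1, rest on few fragments.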
